A study of Mus musculus with 9 samples.

Results

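RNA levels of enzymes that build pyrimidine and purine nucleotides were read from microarrays of primary mouse osteoblasts, the bone-forming cells, after 4 h with a parathyroid hormone peptide. The 10 genes were Uck1, Uck2, Cad, Umps, Dhodh and Ctps of the pyrimidine routes, and Ppat, Gart, Paics and Impdh2 of the purine route. They were chosen by symbol, with earlier results of these data known, and a gene with several transcript clusters (sets of probes read together as one transcript) was read from the one selected on the highest mean over the 9 arrays. That gave 9 genes of the 22180 with a cluster of a single symbol. Impdh2 had no such cluster and was not analysed here.

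Each group had 3 arrays. The cells were osteoblasts treated with 100 nM human parathyroid hormone (1-34), here hPTH(1-34), with 1 µM of the bovine (D-Trp12,Tyr34) (7-34) amide, here bPTH(7-34), or with vehicle. In all 3 groups the cells came from calvaria, the skull roof, of 7 to 10 day old C57BL/6J pups. They were used at passage 2, differentiated with ascorbic acid and β-glycerophosphate from day 3, and deprived of serum for 24 h from day 10, so the controls were serum-starved too. Cells were prepared separately for each replicate, but the labels do not say whether a preparation was shared among the treatments. hPTH(1-34) is an agonist of the receptor Pth1r and raises cAMP, and bPTH(7-34) is known as its antagonist. Doses differ between the peptides, so a comparison of the peptides is not one at equal dose.

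Cells obtain pyrimidines by making UMP anew or by phosphorylating uridine and cytidine taken up from outside (salvage). Cad carries out the first steps of the new synthesis, Dhodh the oxidation to orotate in mitochondria, and Umps the last steps to UMP. Ctps makes CTP from UTP, and Uck1 and Uck2 are the uridine-cytidine kinases of salvage. In purine synthesis Ppat catalyses the committed step on the sugar phosphate PRPP, and Gart and Paics catalyse later steps towards IMP. The nucleotides feed RNA and DNA synthesis, and UDP-sugars made from UTP feed the glycosaminoglycans of matrix.

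**Figure D1:**
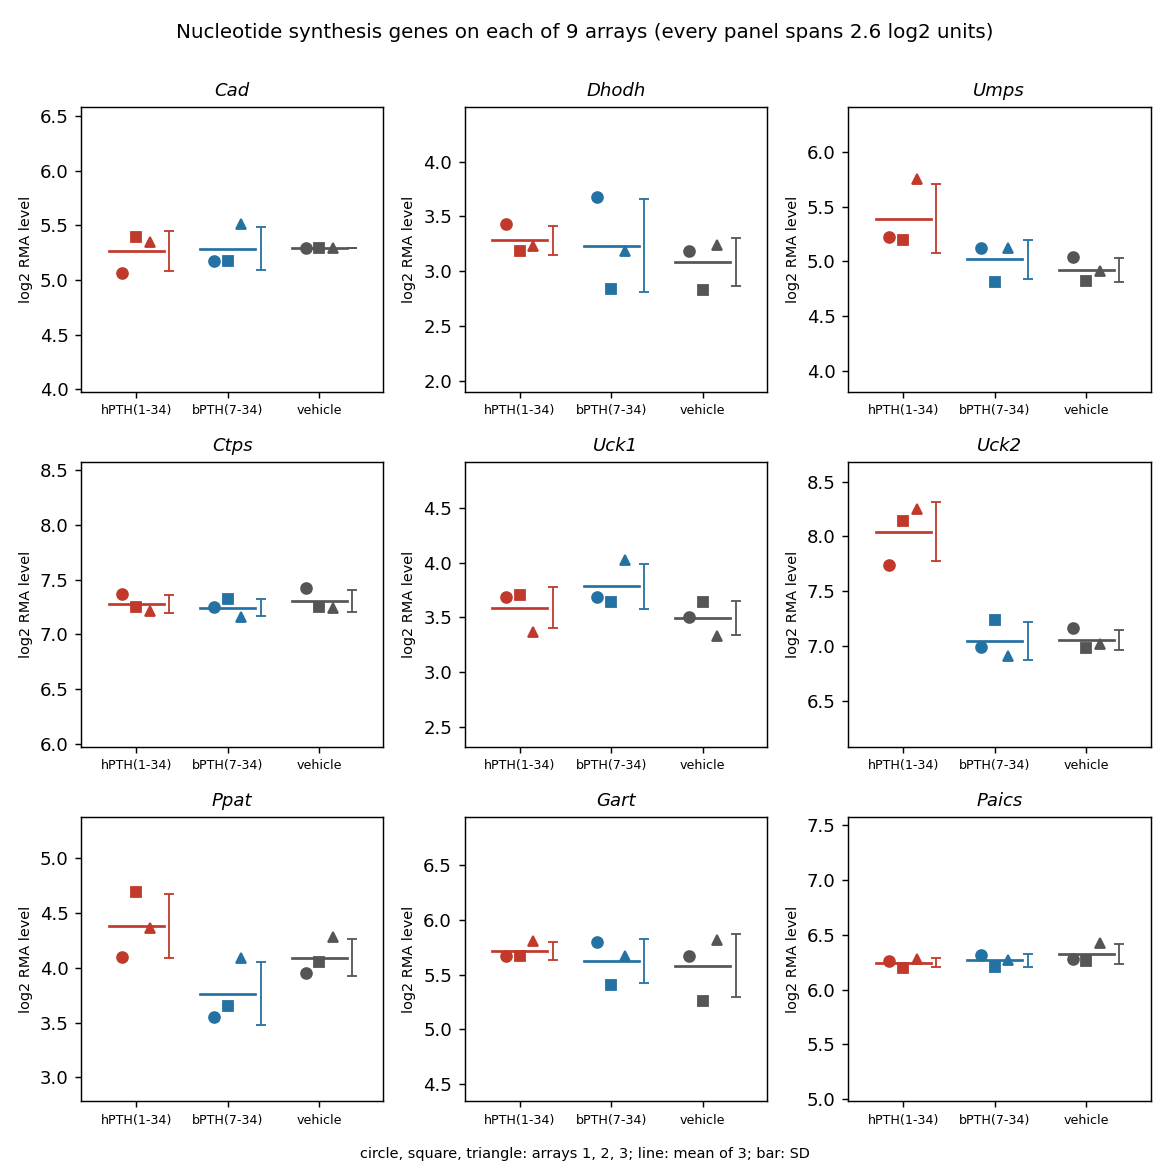
Log2 RMA level (vertical axis) of the 9 measured genes on each array, with hPTH(1-34), bPTH(7-34) and vehicle along each panel. Points are arrays, lines are means of 3 and bars are SD. The 3 hPTH(1-34) arrays of Uck2 lie between 7.74 and 8.25, above all other arrays of that gene, and the points of Ctps and Paics lie close together in all groups.

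Promoter windows from RefSeq (GRCm38.p6) were searched for the E-box CACGTG, a site known to bind MYC-family factors, and for the cAMP response element TGACGTCA, which CREB-family factors are known to bind. Both motifs read the same on either strand. Of the 10 genes, 9 had windows in the table, from 250 bases before to 50 bases after a gene start, 11 windows in all. The element TGACGTCA was present in 1 of the 11 windows, that of Umps, where it starts at base 4 of the gene, against 1.79% of all 32851 windows. CACGTG was present in 2 windows, those of Paics and Impdh2, against 7.15% of all windows. Neither motif was found in the window of Uck2. Shown are Uck2, whose level changed most, Umps, which holds TGACGTCA, and Paics, which holds CACGTG, each 5′ to 3′ on the gene's strand from 250 bases before the start to base 20, with the motifs in capitals. They lie at chr1:167285108-167285377 (Uck2, minus strand), chr16:33967019-33967288 (Umps, minus strand) and chr5:76951052-76951321 (Paics, plus strand).
Uck2: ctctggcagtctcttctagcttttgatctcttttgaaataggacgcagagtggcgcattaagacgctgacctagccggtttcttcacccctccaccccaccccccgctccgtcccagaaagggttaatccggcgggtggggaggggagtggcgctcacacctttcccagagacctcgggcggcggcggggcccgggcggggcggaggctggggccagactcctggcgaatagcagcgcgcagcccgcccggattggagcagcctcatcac
Umps: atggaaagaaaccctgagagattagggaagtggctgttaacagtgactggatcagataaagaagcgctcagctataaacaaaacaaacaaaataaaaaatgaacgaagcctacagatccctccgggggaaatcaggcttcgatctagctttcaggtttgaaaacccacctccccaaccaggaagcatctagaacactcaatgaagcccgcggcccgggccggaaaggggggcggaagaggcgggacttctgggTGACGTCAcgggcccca
Paics: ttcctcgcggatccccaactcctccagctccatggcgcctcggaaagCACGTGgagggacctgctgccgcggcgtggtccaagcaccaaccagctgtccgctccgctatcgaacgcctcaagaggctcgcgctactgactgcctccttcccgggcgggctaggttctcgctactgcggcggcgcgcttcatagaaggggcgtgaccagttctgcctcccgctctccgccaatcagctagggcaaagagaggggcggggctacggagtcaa

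Array medians over all clusters ran from 1.67 to 1.76 on the log2 scale after RMA, which itself brings arrays to a common distribution. Olfactory receptor genes (1088) served as background: the 95th percentile of their mean level with vehicle, here called the background limit, was 1.68, and each of the 9 genes lay above it in all groups. Of the osteoblast markers, Col1a1 (mean log2 level over the 9 arrays 12.28) and Sparc (10.88) were high, while Sp7 (1.67) and Bglap (1.39) averaged under that limit, Sp7 with a mean of 2.03 with bPTH(7-34). Alpl, the alkaline phosphatase of mineralising cells, was the one of the 10 measured osteoblast markers whose hPTH(1-34) arrays stood above those of vehicle. These groups stood apart, in either direction, for 10.7% of all clusters, so 1 of 10 is near that share. Of the 10 markers 5 had a positive log2 change against vehicle, with a median of 0.005. The receptor gene Pth1r gave -0.35 ± 0.19 against vehicle, with groups that overlapped. Against bPTH(7-34) it gave -0.58 ± 0.19, with groups apart (adjusted p = 0.346 in limma). Alpl read 6.32, 6.73 and 6.38 with hPTH(1-34), 5.32, 5.62 and 5.51 with bPTH(7-34), and 5.26, 5.86 and 5.39 with vehicle. Its log2 change was 0.97 ± 0.17, close in size to that of Uck2, with adjusted p = 0.0601 in limma. Adipocyte markers were higher with hPTH(1-34) than with vehicle in 5 of 5 genes (median log2 change 0.54, 0 past an adjusted p of 0.05). With bPTH(7-34) 3 of the 5 were higher than with vehicle (median 0.02), among them Adipoq (0.40) and Fabp4 (0.37). The mean log2 level of the 5 markers ran from 3.98 to 4.84 with hPTH(1-34), from 3.73 to 4.34 with bPTH(7-34) and from 3.69 to 4.20 with vehicle. Of the 5, Lep lay under the background limit (mean 1.46). The mean log2 level of 6 macrophage and osteoclast markers differed between arrays of a group. It was 5.45, 4.82 and 4.20 on hPTH(1-34) arrays 1 to 3, 4.81, 5.26 and 4.32 with bPTH(7-34), and 5.27, 4.67 and 4.92 with vehicle. The markers did not move together: with hPTH(1-34) Ptprc, Cd68, Csf1r and Adgre1 were highest on array 1. Ctsk was lowest there (7.76), and Acp5 was lower there than on array 2 (4.85 against 5.15). The mean was highest on hPTH(1-34) array 1, where Uck2 was lowest in that group. The other groups went the other way. With bPTH(7-34) the array highest in these markers, array 2, was also highest in Uck2 (7.24), and so was array 1 with vehicle (7.16). Of 4 chondrocyte markers, Col2a1 read 5.92, 7.27 and 7.25 with hPTH(1-34), 5.9, 7.07 and 7.23 with bPTH(7-34), and 5.99, 7.09 and 7.15 with vehicle. Array 1 was thus the lowest in every group. Sox9 averaged 6.63, Col10a1 2.45 and Acan 1.84. The part of other cell types in the results below was not tested. In whole cultures, fewer cells of a type and less RNA per cell cannot be told apart.

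The first comparison asked which genes of nucleotide synthesis differed after hPTH(1-34). Uck2, the uridine-cytidine kinase, rose 1.99-fold, and the other 8 genes did not pass the test. Changes are log2 differences with standard errors from limma, and adjusted p values are Benjamini-Hochberg values over all 23521 clusters tested, where 0.451% passed 0.05. On the brightest cluster Uck2 had log2 levels of 7.74, 8.14 and 8.25 with hPTH(1-34), 6.99, 7.24 and 6.91 with bPTH(7-34), and 7.16, 6.98 and 7.02 with vehicle. Every hPTH(1-34) array was above every other array, while the bPTH(7-34) and vehicle arrays overlapped. The log2 change against vehicle was 0.99 ± 0.15 (SE, n = 3 per group, 95% interval 0.66 to 1.32), with adjusted p = 0.0338 in limma. By size it was number 53 of the 73 clusters that rose. Taken between arrays of the same number, the 3 log2 differences were 0.58, 1.16 and 1.23, all positive.

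The call for Uck2 depended on which arrays were kept, more than its size did. Without hPTH(1-34) array 1 the log2 change was 1.14 with adjusted p = 0.00734 in limma. Without any one of the other 8 arrays it ran from 0.89 to 1.04, with adjusted p from 0.0501 to 0.180. With the array number as a block the limma value was 0.99 ± 0.15 with adjusted p = 0.0481. A fit of all 41345 clusters gave adjusted p = 0.102, and one of the 6 arrays of these groups alone gave adjusted p = 0.119.

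A second, dimmer cluster of Uck2 read 4.13, 4.03 and 4.18 with hPTH(1-34), 3.1, 2.15 and 3.19 with bPTH(7-34), and 3.2, 2.45 and 2.69 with vehicle. Again the hPTH(1-34) arrays stood above the rest without overlap. Its log2 change against vehicle was 1.33 ± 0.27, with adjusted p = 0.0983 in limma. Both clusters were measured on the same RNA, so they are not independent samples.

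Uck1, the related uridine-cytidine kinase, was at 3.69, 3.7 and 3.37 with hPTH(1-34), 3.69, 3.64 and 4.02 with bPTH(7-34), and 3.5, 3.64 and 3.33 with vehicle. The groups overlapped, and the log2 change after hPTH(1-34) was 0.10 ± 0.14 (95% interval -0.22 to 0.42, adjusted p = 0.878 in limma). The interval leaves out a change as large as that of Uck2. Uckl1, a further gene of the family, gave -0.02 ± 0.11. The log2 ratio of Uck2 to Uck1 within an array ran from 4.05 to 4.88 with hPTH(1-34) and from 3.34 to 3.69 with vehicle. Such a ratio compares different probes and has meaning only between groups. It was higher with hPTH(1-34) by 0.89 ± 0.26 (SE, n = 3 per group, two-sided exact permutation p = 0.10, the smallest that 3 against 3 allows). Uck1 varied less over these arrays (3.33 to 3.7) than the nearest Uck2 arrays of the groups differed (7.74 and 7.16). The ratio therefore had to separate the groups, and it adds no evidence beyond the Uck2 values.

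**Figure D2:**
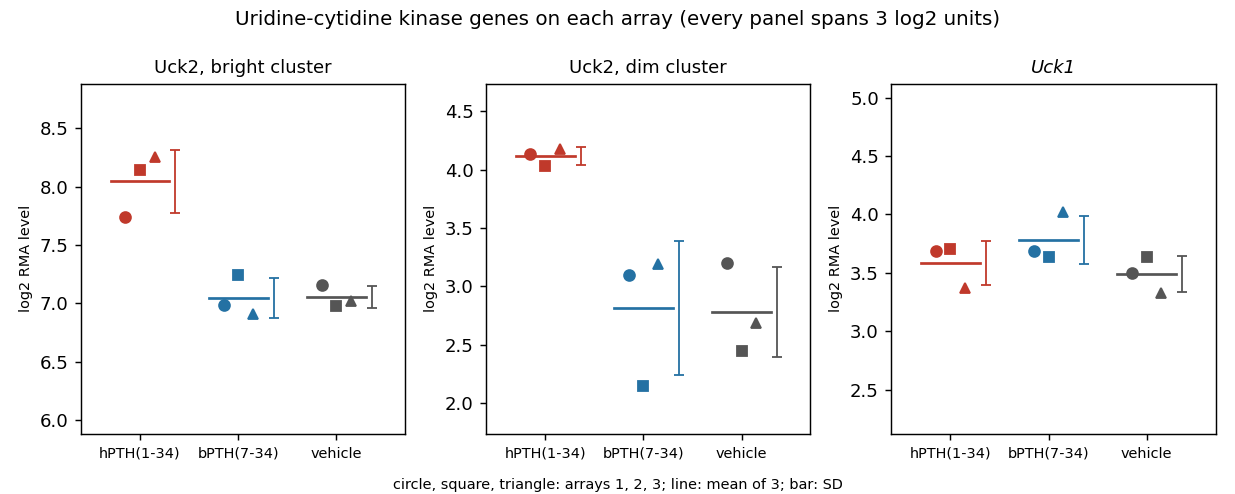
Log2 RMA level (vertical axis) of both Uck2 clusters and of Uck1 on each array, by group. Points are arrays, lines are means of 3 and bars are SD. In both Uck2 panels the hPTH(1-34) arrays lie above all others (7.74 to 8.25 and 4.03 to 4.18), while the groups of Uck1 overlap.

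Among the enzymes of new pyrimidine synthesis, Umps was the only one with groups that did not overlap. It read 5.22, 5.19 and 5.75 with hPTH(1-34), 5.12, 4.81 and 5.12 with bPTH(7-34), and 5.04, 4.82 and 4.91 with vehicle. Array 3 was the highest with hPTH(1-34). The log2 change was 0.46 ± 0.16 (95% interval 0.10 to 0.83), with unadjusted p = 0.0182 and adjusted p = 0.396 in limma. Without 1 array it ran from 0.28, without hPTH(1-34) array 3, to 0.56.

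Cad read 5.06, 5.39 and 5.35 with hPTH(1-34), 5.17, 5.17 and 5.51 with bPTH(7-34), and 5.29 on each vehicle array. The vehicle value lay within the hPTH(1-34) range, and the log2 change was -0.02 ± 0.13 (95% interval -0.31 to 0.26). Dhodh read 3.43, 3.18 and 3.23 with hPTH(1-34), 3.68, 2.84 and 3.18 with bPTH(7-34), and 3.18, 2.83 and 3.24 with vehicle. Its spread within bPTH(7-34) (SD 0.42) was larger than any difference between its group means, and its change after hPTH(1-34) was 0.20 ± 0.20. Ctps, the CTP synthase, stayed between 7.16 and 7.42 on all 9 arrays, with a log2 change of -0.03 ± 0.09 (95% interval -0.24 to 0.18). Adjusted p for these 3 genes ran from 0.818 to 0.977 in limma.

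In the purine route, none of the 3 measured genes passed for hPTH(1-34) against vehicle. Ppat read 4.1, 4.69 and 4.36 with hPTH(1-34), 3.55, 3.65 and 4.09 with bPTH(7-34), and 3.95, 4.05 and 4.28 with vehicle. The hPTH(1-34) and vehicle arrays overlapped, and the log2 change was 0.29 ± 0.18 (95% interval -0.13 to 0.71, adjusted p = 0.688 in limma). Without 1 array it ran from 0.14, without hPTH(1-34) array 2, to 0.43. Gart read 5.67, 5.67 and 5.81 with hPTH(1-34), 5.8, 5.41 and 5.67 with bPTH(7-34), and 5.67, 5.26 and 5.82 with vehicle. Array 2 was the lowest with bPTH(7-34) and with vehicle, and the log2 change was 0.13 ± 0.16 (adjusted p = 0.844 in limma), which became -0.03 without vehicle array 2. Paics read 6.26, 6.2 and 6.28 with hPTH(1-34), 6.32, 6.21 and 6.27 with bPTH(7-34), and 6.28, 6.26 and 6.43 with vehicle. Its log2 change was -0.08 ± 0.09 (95% interval -0.27 to 0.12, adjusted p = 0.837 in limma). Ppat (minus strand) and Paics (plus strand) lie together on chromosome 5. In the RefSeq windows the Ppat start lies 276 bases downstream of the Paics start, so the 5′ ends of the genes overlap. Over the 9 arrays the levels of Ppat and Paics correlated at r = -0.05 (Pearson, n = 9 arrays of 3 groups). The dimmer clusters of Gart went against its brightest one, with log2 changes of -0.18 ± 0.15 at a mean level of 1.67, under the background limit, and -0.38 ± 0.20 at 2.44, above it (adjusted p 0.762 and 0.631 in limma).

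Over the 9 genes, 1 rose, 0 fell and 8 did not pass after hPTH(1-34), with a median log2 change of 0.13, against 0.00 for all clusters tested. For 2 of them, Uck2 and Umps, the groups did not overlap, a state that held for 10.7% of all clusters. The mean log2 level over the 9 genes was 5.39, 5.49 and 5.51 with hPTH(1-34), 5.29, 5.14 and 5.33 with bPTH(7-34), and 5.28, 5.15 and 5.28 with vehicle. Without Uck2 it was 5.10, 5.16 and 5.17 with hPTH(1-34), 5.07, 4.88 and 5.13 with bPTH(7-34), and 5.04, 4.93 and 5.07 with vehicle. The hPTH(1-34) arrays then stood above those of vehicle by less, and overlapped those of bPTH(7-34).

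**Figure D3:**
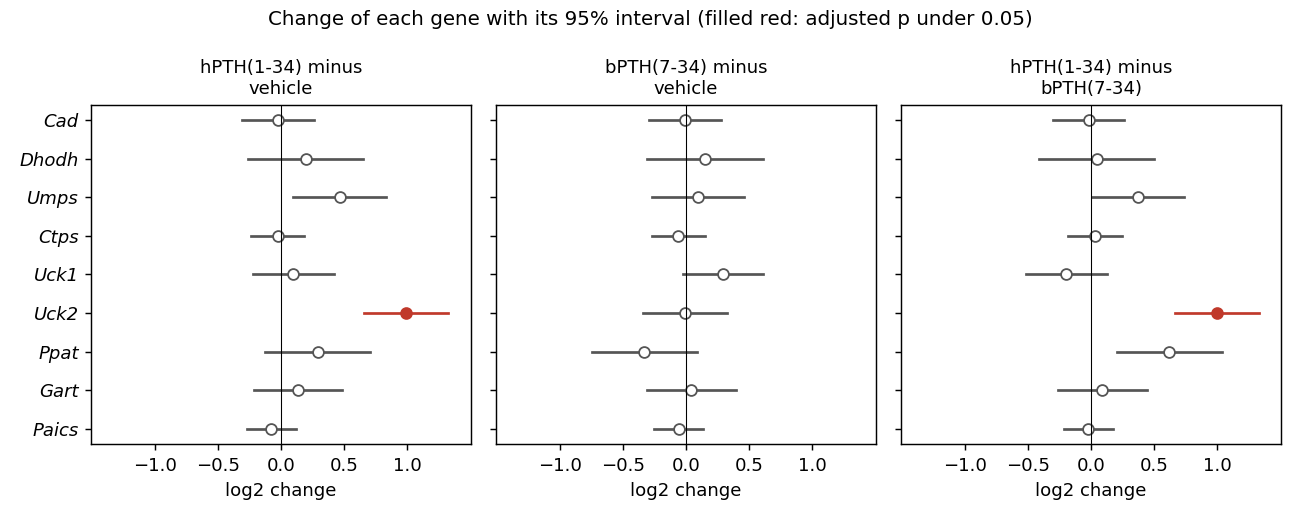
Log2 change (horizontal axis) of the 9 genes with its 95% interval from limma, for hPTH(1-34) minus vehicle, bPTH(7-34) minus vehicle and hPTH(1-34) minus bPTH(7-34). Filled red points passed an adjusted p of 0.05, which was Uck2 alone, at 0.99 against vehicle and 1.00 against bPTH(7-34).

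The second comparison set bPTH(7-34) against vehicle. In limma 0 of the 9 genes passed, and 0 of 9 had an unadjusted p under 0.05. Of all clusters 0 passed (0%), with 780 at an unadjusted p under 0.05. Uck2 gave a log2 change of -0.01 ± 0.15 (95% interval -0.34 to 0.32), so a rise of the size seen with hPTH(1-34) lies outside its interval. Uck1 gave 0.29 ± 0.14 (-0.03 to 0.61), which was the highest of the 9, and Ppat -0.33 ± 0.18 (-0.75 to 0.09), which was the lowest. The other 6 genes lay between -0.06 and 0.15, and adjusted p was 0.999 for each of the 9. For 0 of 9 genes the arrays of both groups stood apart, against 5.29% of all clusters.

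The third comparison set hPTH(1-34) against bPTH(7-34), at their different doses. Uck2 was higher with hPTH(1-34) by 1.00 ± 0.15 on the log2 scale (95% interval 0.67 to 1.33, adjusted p = 0.0297 in limma), and it was the only one of the 9 genes that passed, where 0.463% of all clusters passed. Without hPTH(1-34) array 1 adjusted p was 0.00738, and without any one of the other 8 arrays it ran from 0.0510 to 0.146 in limma, with log2 changes from 0.89 to 1.09. With the array number as a block adjusted p was 0.0460. Ppat gave 0.62 ± 0.18 (0.20 to 1.04), with unadjusted p = 0.00819 and adjusted p = 0.273 in limma. Against vehicle Ppat gave 0.29 with hPTH(1-34) and -0.33 with bPTH(7-34), so the difference is not a rise with hPTH(1-34) alone. Its 3 hPTH(1-34) arrays lay above the 3 of bPTH(7-34), narrowly so at the nearest (4.1 against 4.09). Umps gave 0.37 ± 0.16 (0.01 to 0.73, adjusted p = 0.517 in limma), and 0.19 without hPTH(1-34) array 3. For 3 of 9 genes, Uck2, Ppat and Umps, the groups did not overlap, against 11.1% of all clusters. Both this and the first comparison use the hPTH(1-34) arrays, so they are not independent.

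The genes most like Uck2 in pattern were looked for among 4875 genes with a mean log2 level of at least 5. The highest Pearson correlations over the 9 arrays were with Dnaja2, a co-chaperone of the Hsp70 system (r = 0.995), Pmvk, a kinase of the mevalonate pathway (0.994), Adamts9, a matrix protease (0.987), Hspa8, the constitutive Hsp70 chaperone (0.986), and Il4ra, an interleukin receptor subunit (0.983). Their log2 changes after hPTH(1-34) were 0.75, 1.63, 0.90, 0.24 and 1.25 in that order. Dnaja2, Pmvk and Il4ra passed (adjusted p 0.0378, 0.0256 and 0.0275 in limma), and Adamts9 (0.0536) and Hspa8 (0.402) did not. The 9 points share their 3 groups, and predicted and small RNA genes were passed over. Among the synthesis genes themselves, Uck2 correlated with Umps at 0.75 and with Ppat at 0.65, but with Uck1 at -0.26 and with Cad at 0.01. The highest value between members was 0.80, for Dhodh and Gart, which share low readings on array 2 of bPTH(7-34) and of vehicle.

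Other genes of the nucleotide pathways were taken from lists by step. Of 88 further genes 79 were measured, and after hPTH(1-34) 0 rose and 0 fell in limma, with a median log2 change of 0.00. At an unadjusted p under 0.05 in limma 5 were higher and 5 lower. Of all 23521 clusters tested, 2189 were under that value, so these counts are not read as a result about the 79 genes. The groups stood apart in 3 upwards and in 6 downwards, a share close to the 10.7% of all clusters. Against bPTH(7-34) likewise 0 passed, as was the case for bPTH(7-34) against vehicle.

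The smallest p among these 79 genes belonged to Mthfd1l, the mitochondrial enzyme that releases formate for purine synthesis. It read 5.23, 5.2 and 5.22 with hPTH(1-34), 4.3, 4.63 and 4.52 with bPTH(7-34), and 4.3, 4.3 and 4.75 with vehicle. The hPTH(1-34) arrays lay above all others, and the log2 change was 0.77 ± 0.14 (adjusted p = 0.0638 in limma). Its relatives in the folate pathway were Mthfd1, the cytosolic enzyme (0.67 ± 0.22, adjusted p = 0.347), and Mthfd2, the mitochondrial dehydrogenase (0.47 ± 0.18, adjusted p = 0.443). The hPTH(1-34) and vehicle arrays stood apart for Mthfd1 and overlapped for Mthfd2. In the list of folate one-carbon and serine supply, 8 of 13 changes were positive, with a median of 0.11 and 0 past the test.

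In the branch from IMP, Gmps, which makes GMP, read 6.74, 7.02 and 7.19 with hPTH(1-34), 6.43, 6.59 and 6.62 with bPTH(7-34), and 6.47, 6.54 and 6.57 with vehicle. Its groups stood apart, with a log2 change of 0.46 ± 0.12 (adjusted p = 0.218 in limma). In that list of 7 measured genes, Adss, which commits IMP to AMP, gave 0.17 ± 0.11 and the guanylate kinase Guk1 0.19 ± 0.12. In purine synthesis to IMP, Atic gave 0.09 ± 0.10 and Adsl 0.04 ± 0.09. Among PRPP supply genes Prpsap1 gave 0.11 ± 0.09, Prpsap2 0.07 ± 0.11 and the PRPP synthetase Prps2 -0.11 ± 0.22. Xdh, the oxidoreductase that makes urate, gave 0.61 ± 0.29, with groups that overlapped, and the AMP deaminase Ampd2 0.34 ± 0.18. Salvage enzymes of purines were lower in 6 of 8 genes by small amounts, as for Hprt (-0.11 ± 0.10), Aprt (-0.11 ± 0.11) and Dguok (-0.14 ± 0.16). None of these genes passed.

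Other pyrimidine, deoxynucleotide and transporter genes had log2 differences of both signs, and 0 of those named here passed in limma. Uprt, a relative of uracil phosphoribosyltransferases, gave -0.40 ± 0.12 (adjusted p = 0.314 in limma), with groups that stood apart. Thymidine kinases gave 0.13 ± 0.16 (Tk1) and -0.34 ± 0.28 (Tk2). Ctps2, the second CTP synthase gene, gave -0.33 ± 0.13 (adjusted p = 0.464 in limma), also with groups apart. Nme4 gave -0.07 ± 0.12 and Nme7 -0.06 ± 0.12. The nucleotidase Nt5c gave 0.10 ± 0.11. Upb1 and Dpys of pyrimidine breakdown lay under the background limit, as did the urate oxidase gene Uox, whose groups stood apart. Rrm1, the large subunit of ribonucleotide reductase, gave -0.32 ± 0.10 (adjusted p = 0.337 in limma), with groups apart. Rrm2 gave 0.28 ± 0.18 and Dut -0.26 ± 0.15. The nucleoside transporters Slc29a1, of the plasma membrane, and Slc29a3, of lysosomes, gave -0.37 ± 0.14 and -0.32 ± 0.11, both with groups apart, and Slc28a2 gave 0.52 ± 0.21 near the background limit.

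MYC is a known activator of nucleotide synthesis genes, so its network was read as well. Myc gave a log2 change of 0.00 ± 0.09, at 5.07, 5.16 and 5 with hPTH(1-34), 5.25, 5.14 and 5.07 with bPTH(7-34), and 5.11, 5.05 and 5.08 with vehicle. Of 9 network genes 0 passed in limma. Mnt, a repressor that pairs with Max, gave 0.68 ± 0.17 (adjusted p = 0.180), the related repressor Mxd4 -0.45 ± 0.18 (0.461), and Mycl lay under the background limit. Of 13 measured proliferation genes 0 passed too, with a median of 0.13, and Pcna, Top2a and Ccne1 gave 0.24 ± 0.12, 0.21 ± 0.12 and 0.20 ± 0.12. Their mean log2 level ran from 4.95 to 5.00 with hPTH(1-34), from 4.81 to 5.06 with bPTH(7-34) and from 4.81 to 5.01 with vehicle.

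**Figure D4:**
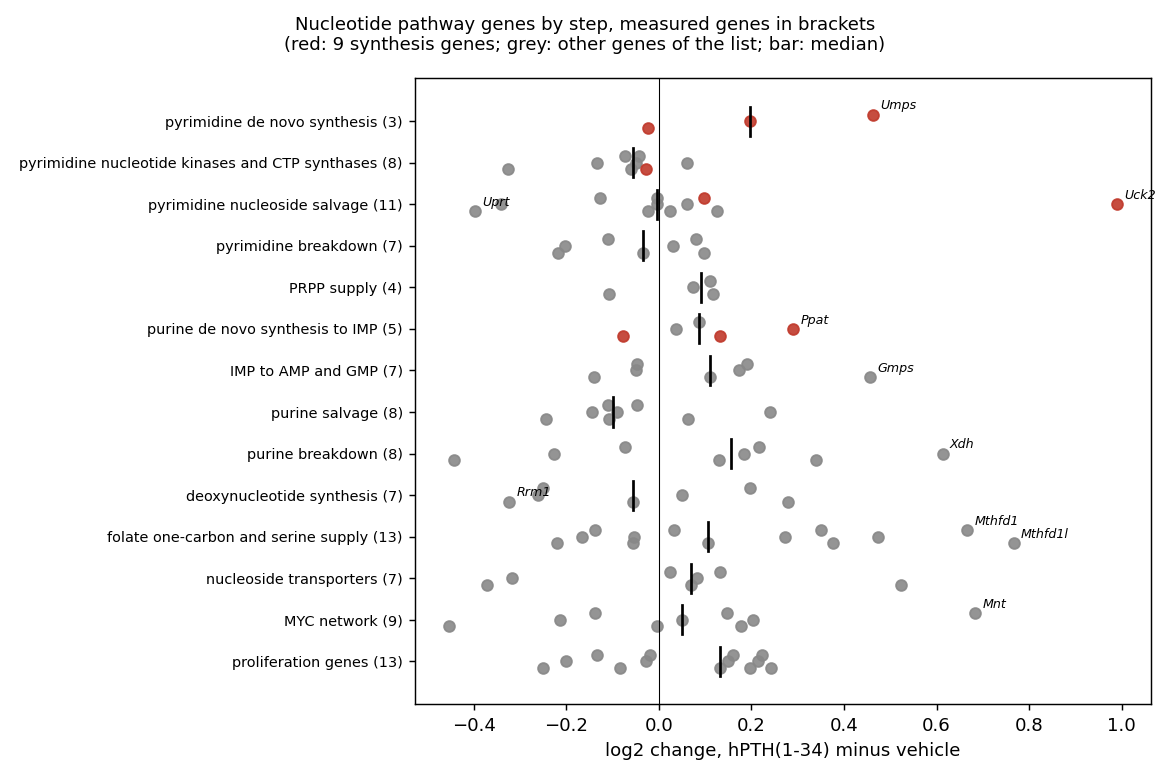
Log2 change after hPTH(1-34) against vehicle (horizontal axis) of all measured genes in 14 lists of pathway steps, the MYC network and proliferation (rows, number of genes in brackets). Red points are the 9 synthesis genes, grey points other genes and black bars list medians. Uck2 at 0.99 lies furthest to the right and was the only point that passed, followed by Mthfd1l at 0.77.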

How the data were processed

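RNA of 9 osteoblast cultures was hybridised to Affymetrix Mouse Gene 2.0 ST arrays, 100 ng each. The authors deposited log2 RMA values per transcript cluster, made with Affymetrix Expression Console and RMA per the submitters' processing notes (versions not given in the sources used here). Arrays have no read depth, and their number limits the precision. Of 41345 clusters, 23521 had 1 symbol in the platform annotation, 1814 several and 16010 none.

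From these values, lmFit and eBayes of limma 3.58.1 (R 4.3.3) were run over all 23521 clusters, with the treatment group and no other term, as a two-sided test at an adjusted p of 0.05, with 6 residual and 3.20 prior degrees of freedom. P-values measure the spread between these cultures. The script was checked on simulated data. Alternatives were another scaling, cluster set, variance model or set of arrays. Deviations of arrays of one number correlated at 0.070 to 0.601 over the 5144 clusters averaging 5 or more on the log2 scale. They passed 0.1 in 8 of 9 pairs, all but number 2 of bPTH(7-34) against vehicle. Whether arrays of one number share a preparation is not given in the labels. The main fit and the permutation test of the Uck2 to Uck1 ratio left the number out, and the fit with the number as a block took it in.

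Members and lists were chosen with earlier results of these data known. Genes named from the 14 pathway lists are those past 0.05 and up to 3 ranked first by p when hPTH(1-34) was set against vehicle. Uckl1, Myc and the marker genes were added to these. Plots were drawn with matplotlib 3.10.9.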

Additional observations from a re-analysis of the deposited data

How the results depend on the processing

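The log2 change of Uck2 kept its direction in all alternatives, from 0.89 to 1.14 against vehicle and from 0.89 to 1.15 against bPTH(7-34), while its call was the part that moved. For hPTH(1-34) against vehicle, 106 clusters and 1 of the 9 genes passed in limma. Testing all clusters gave 16 and 0, the 6 arrays alone 0 and 0 (1936 clusters at an unadjusted p under 0.05), and clusters averaging 5 or more (log2) gave 182. For hPTH(1-34) against bPTH(7-34), 109 and 1 passed, against 3 and 0 with all clusters, 0 and 0 with the 6 arrays alone (2066 at an unadjusted p under 0.05) and 211 among clusters averaging 5 or more. The fit of all clusters takes more clusters into both the variance model and the adjustment, and the fits of 6 arrays use fewer arrays. With all clusters the SE of Uck2 against vehicle was 0.152, against 0.146 in the main fit. Its unadjusted p was 0.000155, against 7.37e-05, in limma. The cause of the changed counts was not tested. Leaving out each array in turn gave from 0 to 259 clusters and 0 to 1 genes against vehicle, and from 2 to 262 clusters and 0 to 1 genes against bPTH(7-34), with Uck2 past the threshold only without hPTH(1-34) array 1. For bPTH(7-34) against vehicle 0 passed in each limma fit, with 66 to 1588 clusters at an unadjusted p under 0.05. With the replicate block 112, 0 and 116 clusters passed in the 3 comparisons, and the calls of the 9 genes did not change. Of 9 arrays, 6 correlated best with their own number in both other groups. The other scalings, 1 cluster per gene and the trended robust variance model left each count within 1.5 times.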
